A study of Homo sapiens with 12 samples.

Results

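MicroRNA and small nucleolar RNA (snoRNA) host transcripts were followed in human induced microglia-like cells (iMGLs), and 58 of the 57992 genes in the count table belonged to this group. They were all genes whose symbol follows the naming of snoRNA hosts (SNHG and a number, 25 genes) or of microRNA hosts (MIR, a name and HG, 33 genes) and that had at least 20 counts summed over the 12 libraries, and another 45 genes with such symbols had fewer. The members were chosen by name and by the summed count, the only measured value used. Just inside the limit stood MIR181A2HG and MIRLET7A1HG with 21 counts each, SNHG21 with 22 and MIRLET7BHG with 23. Just outside it stood MIR3681HG with 19, MIR137HG and MIR130AHG with 17 each and MIR133A1HG with 16.

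The iMGLs derived from H1, a human pluripotent stem cell line, and carried a knockout of the transcription factor MEF2C (KO) or were wild type (WT), and the series models overactivated microglia by exposing them to lipopolysaccharide (LPS), the bacterial ligand of the receptor TLR4. The 5 groups were KO cells with LPS and BMS265246, which the series title ties to CDK2 inhibition (KO LPS BMS, 2 libraries), KO cells with LPS (KO LPS, 2 libraries), WT cells with LPS (WT LPS, 2 libraries), KO cells with vehicle (KO, 3 libraries) and WT cells with vehicle (WT, 3 libraries). No library held WT cells with BMS265246, and none held BMS265246 without LPS, so KO LPS BMS cells carry the knockout and LPS as well. The sources used here do not give the type of edit, the dose or duration of either treatment, or whether the KO cells were 1 clone. The titles call the libraries biological replicates without naming separate differentiations, so p-values measure the spread between these libraries.

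A microRNA host is a long primary transcript from which the nuclease DROSHA cuts a hairpin and DICER1 the mature microRNA, which then guides an Argonaute protein to messenger RNAs through its seed. A snoRNA host is spliced, and its introns release snoRNAs that guide the chemical modification or processing of ribosomal RNA, while the spliced remainder of several hosts is degraded quickly by nonsense-mediated decay. In macrophages, miR-155 and miR-146a are known as microRNAs induced by Toll-like receptor signalling, and miR-223 as a microRNA of the myeloid lineage. The libraries counted host transcripts, and mature microRNAs and snoRNAs were not measured.

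The mature microRNAs of the hosts that the results turn on are printed to show which products these transcripts can give. Sequences are from RefSeq (GRCh38.p14), 5′ to 3′, with the seed (bases 2 to 8) in capitals.
miR-223-3p (MIR223HG, exon): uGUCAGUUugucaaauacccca
miR-155-5p (MIR155HG, exon): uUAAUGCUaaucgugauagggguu
miR-146a-5p (MIR3142HG, exon): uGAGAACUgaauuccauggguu
miR-142-3p (MIR142HG, exon): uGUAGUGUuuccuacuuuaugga
miR-22-3p (MIR22HG, exon): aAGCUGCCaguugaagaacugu
miR-503-5p (MIR503HG, intron): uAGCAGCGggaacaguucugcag
miR-210-3p (MIR210HG, intron): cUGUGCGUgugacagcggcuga
miR-3945 (MIR3945HG, intron): aGGGCAUAggagaggguugauau
let-7i-5p (MIRLET7IHG, intron): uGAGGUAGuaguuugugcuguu
miR-221-3p (MIR222HG, intron): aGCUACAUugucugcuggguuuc
miR-222-3p (MIR222HG, intron): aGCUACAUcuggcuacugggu
Of the 33 microRNA hosts, 30 held at least 1 mature sequence of the table, 100 in all, of which 46 lay in exons and 54 in introns. The 2 microRNAs of MIR222HG share the seed GCUACAU, and the let-7i seed GAGGUAG occurs in 5 of the hosts.

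For the snoRNA hosts SNHG5, SNHG16 and SNHG15, which recur in the results, 1 snoRNA each is shown with its box elements in capitals. C box (TGATGA) and D box (CTGA) mark the snoRNAs that guide 2′-O-methylation, and the ACA box marks those that guide pseudouridylation. The letters are from GENCODE release 29 (GRCh38), on the strand of the gene.
SNORD50B (SNHG5, chr6:85677589-85677658, minus strand, exon): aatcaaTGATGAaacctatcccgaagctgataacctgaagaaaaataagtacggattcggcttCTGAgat
SNORD1B (SNHG16, chr17:76561109-76561192, plus strand, intron): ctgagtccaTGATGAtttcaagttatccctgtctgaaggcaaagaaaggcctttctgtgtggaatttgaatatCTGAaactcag
SNORA9 (SNHG15, chr7:44985378-44985510, minus strand, exon): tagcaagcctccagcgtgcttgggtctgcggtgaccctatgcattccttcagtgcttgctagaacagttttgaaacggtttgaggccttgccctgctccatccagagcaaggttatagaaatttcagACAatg
The words exon and intron here refer to the union of all annotated transcripts, which can include unspliced ones.

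Library totals ran from 13888283 to 17639136 counts, and 3 counts, the limit that a count of 0 allows, corresponded to a level of 0.154 to 0.236 CPM, that is, counts scaled to a common total per library after TMM normalisation. Intervals and limits of this kind cover counting error only. All 10 microglial markers checked reached 1 CPM in some library of the series, and only their sum was read by group. It ran from 4500 CPM in a WT LPS library to 5620 CPM in a KO LPS BMS library. Summed over each list, 6 pluripotent markers stayed between 0 and 0.618 CPM, 6 neuronal markers between 1.30 and 5.55 CPM, 7 mesenchymal markers between 11.8 and 61.4 CPM, 8 erythroid and megakaryocytic markers between 20.1 and 38.8 CPM, and 6 lymphocyte markers between 16.9 and 38.1 CPM. TDGF1 in the pluripotent, HBG1 in the erythroid and MS4A1 in the lymphocyte list were at 0 in all 12 libraries, while other members of those lists were detected. The 6 endothelial markers, of which 2 never reached 1 CPM and none was at 0 throughout, summed to 469 to 476 CPM in KO LPS BMS, 307 to 343 CPM in KO LPS, 221 to 248.3 CPM in WT LPS, 560 to 593 CPM in KO and 509 to 542 CPM in WT libraries. By genotype, the neuronal sum was 3.99 to 5.55 CPM in groups with KO cells and 1.30 to 2.26 CPM in groups with WT cells. The erythroid and megakaryocytic sum was 32.9 to 38.8 CPM with KO and 20.1 to 30.5 CPM with WT cells. The mesenchymal sum overlapped, at 21.2 to 61.4 CPM in KO and 11.8 to 28.6 CPM in WT libraries. The part of these lists in the results, sparse hosts among them, was not tested. MEF2C transcripts were present in KO libraries at 136, 129 and 135 CPM, against 193, 183 and 177 CPM in WT libraries (log2 fold change -0.47 ± 0.05, edgeR adjusted p = 4e-07). With LPS they were at 43.7 and 44.1 CPM in KO LPS BMS, 45.9 and 46.8 CPM in KO LPS and 49.6 and 51.6 CPM in WT LPS libraries, and the difference between KO LPS and WT LPS did not pass (edgeR adjusted p = 0.187). Reads over a gene need not show the edit. Of the 58 host transcripts, 43 (21 snoRNA hosts and 22 microRNA hosts) had enough counts to be tested, and the 15 others (4 and 11) stayed under 1 CPM in every library.

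Host transcripts spanned a wide range of levels. Averaged over the 12 libraries and per kilobase of exon, MIR223HG was highest with 38.0 CPM per kb, followed by SNHG32 with 37.4, SNHG29 with 30.0, MIR142HG with 18.1 and SNHG6 with 17.3 CPM per kb. MIR3142HG followed at 6.28 CPM per kb and MIR155HG at 4.09 CPM per kb. The order rests on means over unlike groups, and MIR223HG alone ran from 9.27 to 119 CPM between libraries, while SNHG32 stayed between 59.7 and 79.5 CPM.

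The summed level of the 33 microRNA hosts and that of the 25 snoRNA hosts ordered the groups differently. Summed microRNA hosts came to 214 and 222 CPM in KO LPS BMS, 324 and 322 CPM in KO LPS, 281 and 283 CPM in WT LPS, 209, 204 and 207 CPM in KO and 153, 167 and 163 CPM in WT. Summed snoRNA hosts came to 545 and 521 CPM in KO LPS BMS, 432 and 432 CPM in KO LPS, 503 and 460 CPM in WT LPS, 377, 370 and 366 CPM in KO and 425, 399 and 409 CPM in WT. KO LPS BMS was thus highest for the snoRNA hosts, and KO LPS for the microRNA hosts, an order that rests on MIR223HG. The other 32 microRNA hosts, a sum taken after seeing the data, came to 205 and 212.5 CPM in KO LPS BMS, 205 and 211 CPM in KO LPS, 209 and 207 CPM in WT LPS, 116, 114 and 114 CPM in KO and 102.5 to 113 CPM in WT. Without MIR223HG the 3 groups with LPS overlapped, and all of their libraries lay above those of KO and WT.

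**Figure D1:**
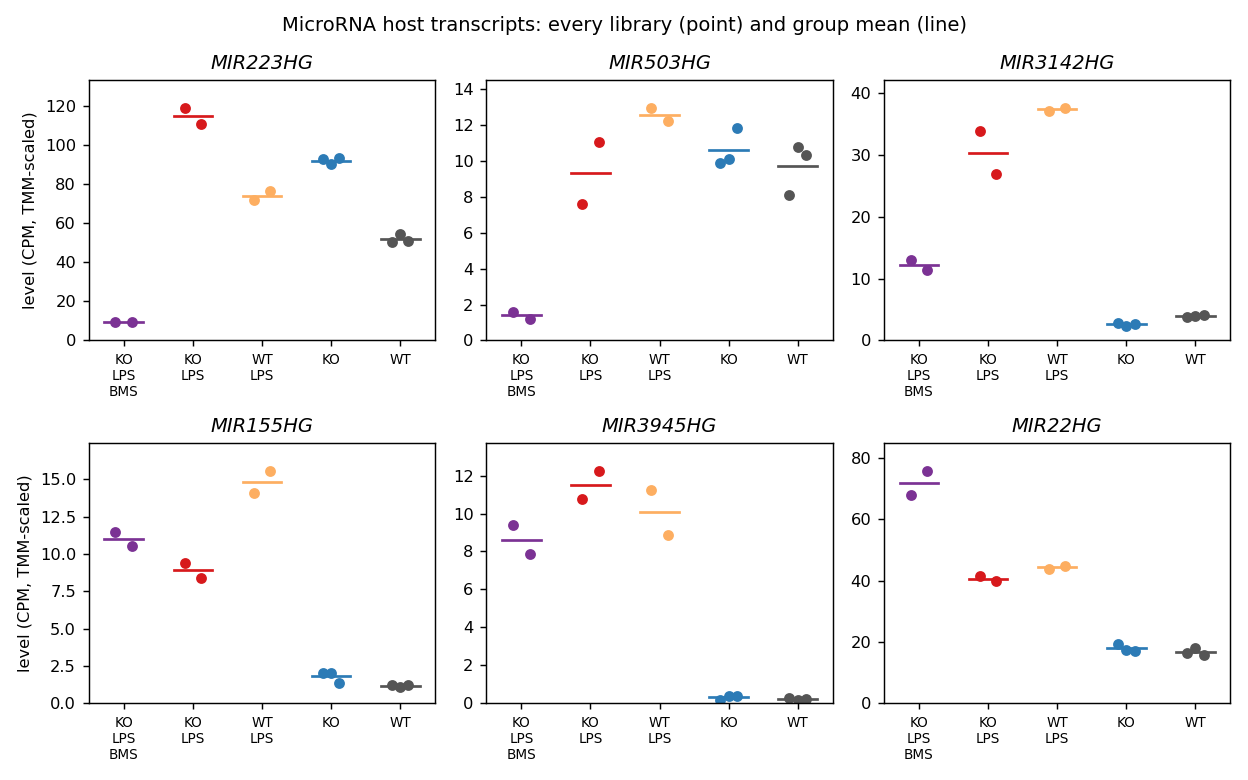
Level of 6 microRNA hosts in every library, in CPM on TMM-scaled libraries (vertical axis from 0, its own scale in each panel). Points are libraries and lines are group means; KO LPS BMS libraries are lowest for MIR223HG and MIR503HG, and the 3 groups with LPS lie above KO and WT for MIR3142HG, MIR155HG, MIR3945HG and MIR22HG.

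The first question was which host transcripts differed between KO and WT cells without LPS. MIR223HG was higher in KO cells, and so were the much less abundant MIR222HG, MIR646HG and MIR100HG, whereas the snoRNA hosts SNHG5 and SNHG32 and the microRNA hosts MIR3142HG and MIR600HG were lower. By edgeR's quasi-likelihood F test with Benjamini-Hochberg adjustment over all 16022 genes tested, 4 of the 43 tested hosts were higher and 4 lower, where 10.2% of all tested genes were higher and 11.4% lower. That is 18.6% of the hosts, beside 21.6% of all tested genes, so the share among the hosts was near the background. No snoRNA host was higher and 2 of 21 were lower, and of the 22 microRNA hosts 4 were higher and 2 lower.

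MIR223HG, the host of miR-223, had 92.5, 90.1 and 93.2 CPM in KO libraries, against 50.5, 54.4 and 50.8 CPM in WT libraries. The groups did not overlap, and the log2 fold change was 0.82 ± 0.06 (SE; edgeR adjusted p = 2.5e-10), a 1.77-fold difference. Beside it, the summed level of 10 monocyte and granulocyte markers was 2055 to 2151 CPM in KO libraries and 1457 to 1533 CPM in WT libraries, with none of the 10 at 0 throughout and 2 never reaching 1 CPM. Its part in the result was not tested, and in bulk RNA more cells of a type and more RNA per cell cannot be told apart. The gene lies on chromosome X at 66015461 to 66020422 (GRCh38, plus strand) and shares no exon with another tested gene.

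MIR155HG, the host of miR-155, had 2.06, 2.01 and 1.40 CPM in KO libraries, against 1.24, 1.08 and 1.24 CPM in WT libraries. All KO libraries lay above all WT libraries, but the log2 fold change of 0.61 ± 0.22 missed the threshold (edgeR adjusted p = 0.055). It passed under a filter of at least 1 CPM in 2 libraries (edgeR adjusted p = 0.0473) and without KO replicate 3 (edgeR adjusted p = 0.0231). MIR3142HG, the host of miR-146a, which is known to restrain Toll-like receptor signalling, had 2.84, 2.29 and 2.69 CPM in KO libraries and 3.78, 3.91 and 4.07 CPM in WT libraries. It fell by 0.59 ± 0.16 on the log2 scale (edgeR adjusted p = 0.00952), a call lost without KO replicate 2 (edgeR adjusted p = 0.0594).

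Among snoRNA hosts, SNHG5, whose SNORD50B is shown above, had 29.9, 27.8 and 28.4 CPM in KO libraries, against 39.1, 38.8 and 38.2 CPM in WT libraries. It fell by 0.43 ± 0.07 on the log2 scale (edgeR adjusted p = 4.39e-05), with groups that did not overlap. SNHG32, the host of SNORD48 and SNORD52, had 62.5, 63.4 and 60.7 CPM in KO libraries and 79.5, 67.8 and 78.8 CPM in WT libraries. Its fall of 0.28 ± 0.07 on the log2 scale (edgeR adjusted p = 0.00734) was lost without WT replicate 1 (edgeR adjusted p = 0.0525).

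The other called hosts were sparse. MIR222HG, from which miR-221 and miR-222 are cut, averaged 2.33 CPM in KO and 1.30 CPM in WT libraries (log2 fold change 0.82 ± 0.25, edgeR adjusted p = 0.0189), a call lost without WT replicate 1, KO replicate 1 or KO replicate 3 (edgeR adjusted p = 0.0852, 0.0932 and 0.0537). MIR646HG averaged 1.64 CPM in KO and 0.71 CPM in WT libraries (1.201 ± 0.359, edgeR adjusted p = 0.0186), and lost its call without WT replicate 1, WT replicate 3 or KO replicate 2 (edgeR adjusted p = 0.103, 0.0737 and 0.167). MIR600HG averaged 1.26 CPM in KO and 2.24 CPM in WT libraries (-0.84 ± 0.27, edgeR adjusted p = 0.0284), and it shares 254 bases of exon with STRBP on the same strand. Its call was lost without WT replicate 2, WT replicate 3, KO replicate 2 or KO replicate 3 (edgeR adjusted p = 0.131, 0.0699, 0.0835 and 0.126). MIR100HG, the host of miR-100, let-7a-2 and miR-125b-1, fell under the abundance limit of 1 CPM for named genes and was picked after its values were seen: it had 2.39, 1.17 and 1.56 CPM in KO libraries, against 0.162, 0.154 and 0.154 CPM in WT libraries, which lie at the limit that a count of 0 allows. The fitted log2 fold change was 3.37 ± 0.48 (edgeR adjusted p = 1.41e-05).

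The second question was how host transcripts responded to LPS in each genotype. MIR3945HG, MIR3142HG, MIR210HG and MIR155HG had the 4 largest called rises with LPS in KO and in WT cells, and SNHG15 led the called snoRNA hosts in both. The falling hosts were mostly low in level or small in change, among them MIR99AHG, SNHG7, SNHG12 and SNHG14. In KO cells 15 of 43 tested hosts were higher with LPS and 5 lower, which is 46.5% beside 44.8% of all tested genes (24.5% higher and 20.3% lower). In WT cells 17 were higher and 12 lower, 67.4% beside 59.7% of all tested genes (28.9% higher and 30.8% lower). Both shares were close to the background. The median log2 fold change of the hosts was 0.20 in KO cells, beside -0.004 for all tested genes, and 0.11 in WT cells, beside -0.07 for all tested genes.

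By kind, 11 of 22 microRNA hosts were higher and 2 lower with LPS in KO cells, and 11 were higher and 6 lower in WT cells. Of 21 snoRNA hosts, 4 were higher and 3 lower in KO cells, and 6 were higher and 6 lower in WT cells. The 2 LPS comparisons share no library. In them, 14 hosts rose in both genotypes, 5 fell in both, 1 rose in KO cells alone by the threshold, 3 rose and 7 fell in WT cells alone by the threshold and 13 passed in neither. Passing in 1 genotype alone does not show a difference between them, which the interaction below tests. Across the 43 hosts the log2 fold changes had the same sign in 40 and a Pearson r of 0.936, a description over genes, which are not independent replicates. These joint counts and the correlation were not computed over all tested genes. They therefore do not show whether the hosts agreed more or less than other genes.

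LPS libraries had smaller TMM factors, and this scaling matters for small changes. With library size alone, the median log2 fold change of all tested genes shifted by -0.253 in KO and by -0.286 in WT cells, and rises made up 25.5% in place of 54.7% of the calls in KO and 26.7% in place of 48.4% in WT cells. No called host changed direction, but the calls for SNHG5, MIR223HG and MIR17HG in KO cells and for SNHG5, SNHG26, MIR503HG, MIR23AHG and MIR222HG in WT cells were lost.

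MIR155HG had 9.42 and 8.41 CPM in KO LPS libraries, against 2.06, 2.01 and 1.40 CPM in KO libraries. It had 14.1 and 15.6 CPM in WT LPS libraries, against 1.24, 1.08 and 1.24 CPM in WT libraries. LPS thus raised it 4.91-fold in KO cells (log2 fold change 2.29 ± 0.18, edgeR adjusted p = 3.55e-10) and 12.4-fold in WT cells (3.64 ± 0.17, edgeR adjusted p = 4.4e-14). The interaction, which asks whether the responses differ, was -1.34 ± 0.27 on the log2 scale (edgeR adjusted p = 0.00202). It kept its direction and its call in all alternatives run. The gene spans bases 25561909 to 25575168 of chromosome 21 (GRCh38, plus strand).

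MIR3142HG had 33.9 and 26.8 CPM in KO LPS libraries, against 2.84, 2.29 and 2.69 CPM in KO libraries, and 37.1 and 37.6 CPM in WT LPS libraries, against 3.78, 3.91 and 4.07 CPM in WT libraries. These are rises of 11.7-fold in KO cells (log2 fold change 3.54 ± 0.14, edgeR adjusted p = 1.22e-15) and 9.503-fold in WT cells (3.25 ± 0.12, edgeR adjusted p = 6.8e-16). No difference between the responses was called. MIR3945HG showed the steepest rises among the tested hosts, with 10.8 and 12.2 CPM in KO LPS libraries against 0.194 to 0.391 CPM in KO libraries, and 11.2 and 8.88 CPM in WT LPS libraries against 0.206 to 0.270 CPM in WT libraries. Its log2 fold changes were 5.11 ± 0.24 in KO cells (edgeR adjusted p = 7.77e-14) and 5.32 ± 0.26 in WT cells (edgeR adjusted p = 5.38e-14), from levels without LPS of a few counts per library.

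MIR210HG, the host of the hypoxia-responsive miR-210, had 7.997 and 9.51 CPM in KO LPS libraries, against 1.29, 1.45 and 1.13 CPM in KO libraries, and 6.45 and 5.75 CPM in WT LPS libraries, against 0.432, 0.926 and 0.927 CPM in WT libraries. It rose 6.75-fold in KO cells (log2 fold change 2.75 ± 0.21, edgeR adjusted p = 3.95e-10) and 7.88-fold in WT cells (2.98 ± 0.24, edgeR adjusted p = 4.32e-10). MIRLET7IHG, the host of let-7i, averaged 16.6 CPM in KO LPS and 5.48 CPM in KO libraries, and 18.1 CPM in WT LPS and 5.59 CPM in WT libraries (log2 fold changes 1.598 ± 0.138 and 1.69 ± 0.13, edgeR adjusted p = 2.38e-09 and 3.24e-10). It shares 84 bases of exon with LINC01465 on the other strand, which rose too (1.92 ± 0.41 in KO and 1.84 ± 0.44 in WT cells). MIR22HG had 41.5 and 39.8 CPM in KO LPS libraries, against 19.4, 17.3 and 17.0 CPM in KO libraries, and its rises of 1.19 ± 0.09 in KO and 1.41 ± 0.09 in WT cells on the log2 scale both passed (edgeR adjusted p = 1.42e-10 and 3.2e-12).

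MIR223HG moved less, although it was the most abundant microRNA host. It had 119 and 111 CPM in KO LPS libraries, against 90.1 to 93.2 CPM in KO libraries (log2 fold change 0.32 ± 0.06, edgeR adjusted p = 0.000164). It had 71.6 and 76.2 CPM in WT LPS libraries, against 50.5 to 54.4 CPM in WT libraries (0.51 ± 0.06, edgeR adjusted p = 4.26e-07). The monocyte and granulocyte markers summed to 2836 to 3171 CPM in KO LPS and 2055 to 2151 CPM in KO libraries, and to 2182 to 2280 CPM in WT LPS and 1457 to 1533 CPM in WT libraries, and their part in the result was not tested. The KO call was lost with library size alone (0.07, edgeR adjusted p = 0.395), and the interaction of -0.19 ± 0.09 did not pass (edgeR adjusted p = 0.179).

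**Figure D2:**
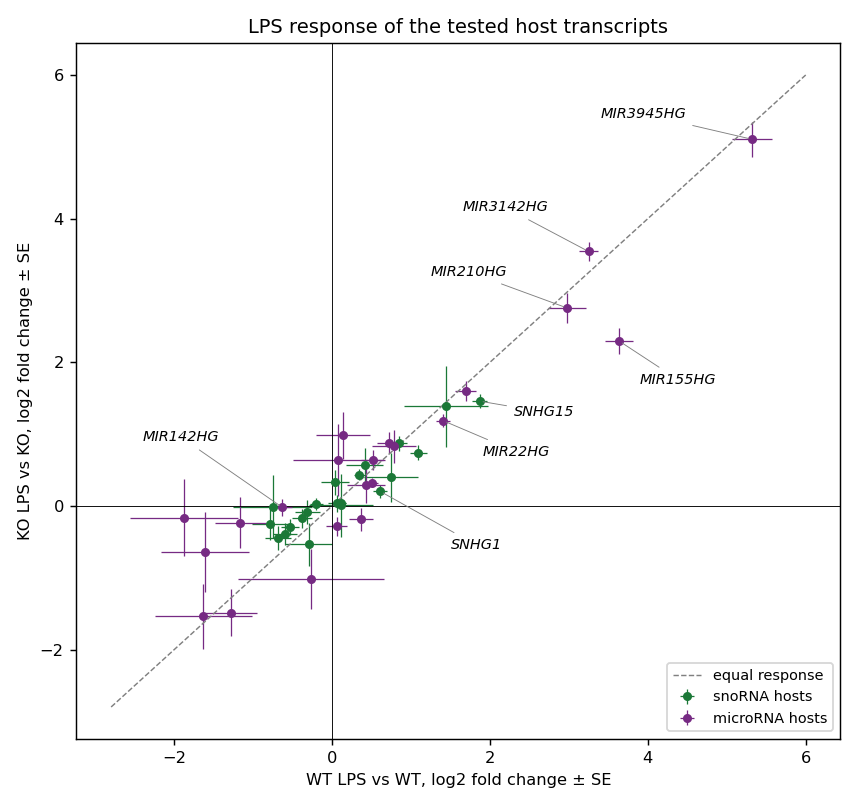
Log2 fold change with LPS (points) ± SE (bars) for the 43 tested host transcripts, in KO cells on the vertical axis and in WT cells on the horizontal axis. Most hosts lie near the dashed line of equal response, and MIR155HG lies below it, with 2.29 in KO cells and 3.64 in WT cells.

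SNHG15, the host of SNORA9, had 32.7 and 31.5 CPM in KO LPS libraries, against 11.9, 11.97 and 11.2 CPM in KO libraries, and 43.5 and 40.6 CPM in WT LPS libraries, against 13.0, 9.93 and 11.6 CPM in WT libraries. It rose by 1.46 ± 0.10 in KO cells (edgeR adjusted p = 4.52e-11) and by 1.87 ± 0.10 in WT cells (edgeR adjusted p = 1.72e-13) on the log2 scale. SNHG16, the host of the SNORD1 family, averaged 43.1 CPM in KO LPS and 23.6 CPM in KO libraries, and 45.8 CPM in WT LPS and 25.4 CPM in WT libraries (log2 fold changes 0.87 ± 0.10 and 0.85 ± 0.10, edgeR adjusted p = 7.93e-07 and 5.31e-07). SNHG3, the host of SNORA73A and SNORA73B, averaged 24.6 CPM in KO LPS and 14.7 CPM in KO libraries, and 25.9 CPM in WT LPS and 12.1 CPM in WT libraries (0.74 ± 0.11 and 1.09 ± 0.11, edgeR adjusted p = 6.19e-06 and 1.13e-08). SNHG3 shares 242 bases of exon with RCC1 on the same strand, and RCC1 did not pass in KO or in WT cells (0.07 ± 0.08 and 0.11 ± 0.08, edgeR adjusted p = 0.513 and 0.227).

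Among the falling hosts, MIR99AHG, the host of miR-99a and let-7c, averaged 0.76 CPM in KO LPS and 2.14 CPM in KO libraries, and 0.73 CPM in WT LPS and 1.81 CPM in WT libraries (log2 fold changes -1.49 ± 0.33 and -1.28 ± 0.34, edgeR adjusted p = 0.000854 and 0.00242). The WT call was lost without WT LPS replicate 1 (edgeR adjusted p = 0.0575). SNHG7 averaged 7.67 CPM in WT LPS and 12.3 CPM in WT libraries (-0.69 ± 0.16, edgeR adjusted p = 0.00117), and it shares 1094 bases of exon with DIPK1B on the other strand. SNHG30, the host of SNORD7, averaged 2.08 CPM in WT LPS and 3.56 CPM in WT libraries (-0.78 ± 0.24, edgeR adjusted p = 0.00717), a call lost without WT LPS replicate 2 (edgeR adjusted p = 0.162). MIR600HG averaged 1.00 CPM in WT LPS and 2.24 CPM in WT libraries (-1.16 ± 0.33, edgeR adjusted p = 0.0042), lost without WT LPS replicate 2 (edgeR adjusted p = 0.0601), while STRBP, with which it shares exon sequence, fell as well (-0.81 ± 0.12, edgeR adjusted p = 4.62e-06).

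In KO cells the falls of MIR646HG, SNHG12 and SNHG14 each depended on a library. MIR646HG averaged 0.56 CPM in KO LPS and 1.64 CPM in KO libraries (log2 fold change -1.53 ± 0.45, edgeR adjusted p = 0.00802), lost without KO replicate 2 (edgeR adjusted p = 0.0557). SNHG12 averaged 10.6 CPM in KO LPS and 13.8 CPM in KO libraries (-0.39 ± 0.15, edgeR adjusted p = 0.0396), and the call was lost without KO replicate 2, KO replicate 3 or KO LPS replicate 1 (edgeR adjusted p = 0.131, 0.0673 and 0.494). SNHG14, the host of the imprinted SNORD115 and SNORD116 clusters, averaged 13.6 CPM in KO LPS and 16.6 CPM in KO libraries (-0.30 ± 0.11, edgeR adjusted p = 0.0385), lost without KO replicate 3, KO LPS replicate 1 or KO LPS replicate 2 (edgeR adjusted p = 0.179, 0.118 and 0.0753).

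The interaction called 3 of 43 tested hosts, 1 more positive in KO cells and 2 more negative, which is 6.98% beside 12% of all tested genes (6.42% higher and 5.57% lower). With library size alone, 65.3% in place of 53.5% of the interaction calls over all genes were positive, and the call for SNHG1 was lost. MIR142HG, the host of the blood-cell microRNA miR-142, had 27.1 and 34.5 CPM in KO LPS libraries, against 31.8, 31.2 and 30.7 CPM in KO libraries, and 25.1 and 17.9 CPM in WT LPS libraries, against 33.8, 33.1 and 32.5 CPM in WT libraries. It fell in WT cells (log2 fold change -0.63 ± 0.12, edgeR adjusted p = 0.000239), and its interaction was 0.61 ± 0.17 (edgeR adjusted p = 0.0265). SNHG1, the host of SNORD22, SNORD25 and other box C/D snoRNAs, had 36.2 and 31.9 CPM in KO LPS libraries, against 30.5, 31.0 and 27.4 CPM in KO libraries, and 45.0 and 45.1 CPM in WT LPS libraries, against 30.1, 30.1 and 28.5 CPM in WT libraries. Its interaction was -0.41 ± 0.13 (edgeR adjusted p = 0.0375). The MIR142HG call was lost without any library of KO or WT, WT LPS replicate 2 or KO LPS replicate 2 (edgeR adjusted p = 0.0524 to 0.152). The SNHG1 call was lost without any library of WT or WT LPS, KO replicate 1, KO replicate 2 or KO LPS replicate 2 (edgeR adjusted p = 0.0505 to 0.189).

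**Figure D3:**
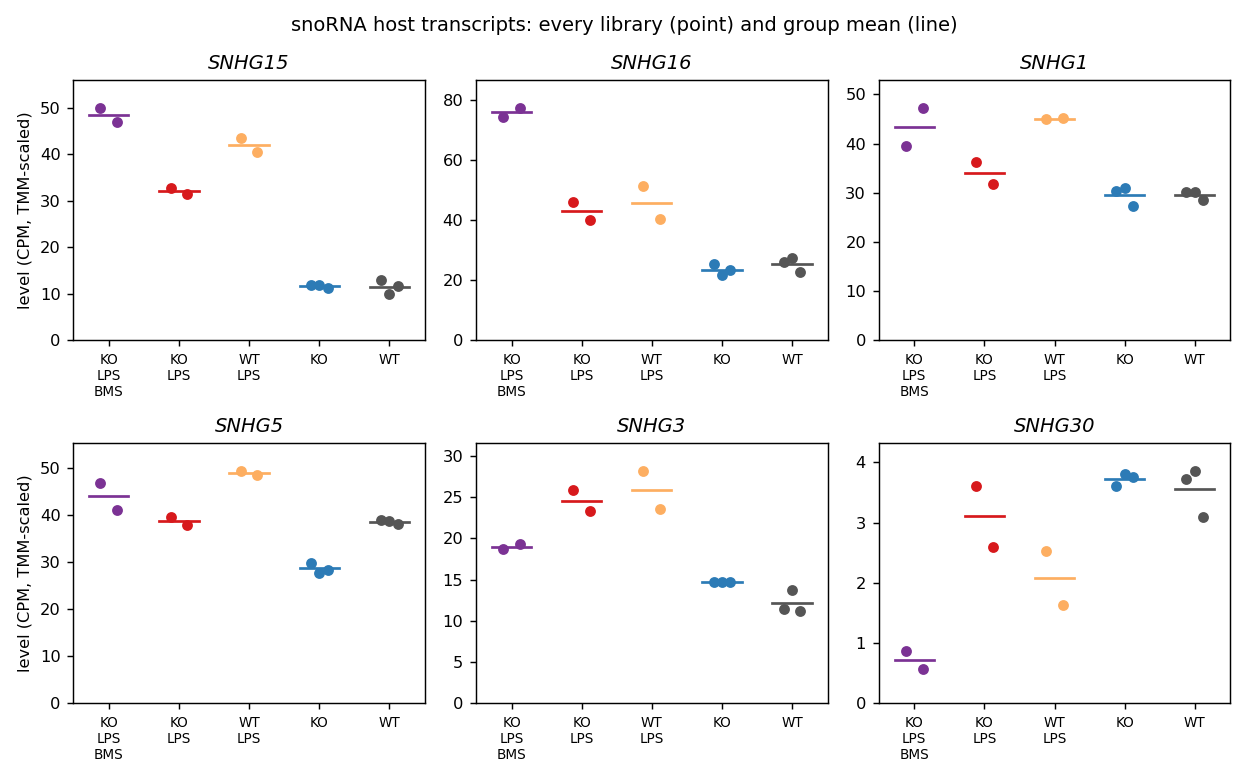
Level of 6 snoRNA hosts in every library, in CPM on TMM-scaled libraries (vertical axis from 0, its own scale in each panel). Points are libraries and lines are group means; SNHG15 and SNHG16 are highest in KO LPS BMS libraries, SNHG5 is lowest in KO libraries, and SNHG30 is lowest in KO LPS BMS libraries.

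The third question was which hosts differed between KO and WT cells under LPS. MIR223HG, MIR142HG, MIR210HG, MIR222HG and MIR100HG were higher in KO LPS cells, and MIR155HG and the snoRNA hosts SNHG1, SNHG5, SNHG15 and SNHG29 were lower. The 5 higher and 5 lower calls make up 23.3% of the 43 tested hosts, beside 30.6% of all tested genes (15.6% higher and 15% lower). With library size alone, 60.6% in place of 51% of the calls over all genes were higher, and among the hosts the call for SNHG29 was lost. The call for MIR100HG was lost without WT LPS replicate 2 (edgeR adjusted p = 0.138). The KO LPS libraries also enter the comparison with KO above, and the WT LPS libraries the comparison with WT.

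MIR223HG had 119 and 111 CPM in KO LPS libraries, against 71.6 and 76.2 CPM in WT LPS libraries (log2 fold change 0.64 ± 0.07, edgeR adjusted p = 3.85e-07). The monocyte and granulocyte markers summed to 2836 to 3171 CPM in KO LPS and 2182 to 2280 CPM in WT LPS libraries, and their part in the result was not tested. MIR155HG had 9.42 and 8.41 CPM in KO LPS libraries, against 14.1 and 15.6 CPM in WT LPS libraries (-0.73 ± 0.15, edgeR adjusted p = 0.000835). The 2 hosts thus differed in opposite directions, each without overlap between the groups.

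Of the 21 tested snoRNA hosts, 4 were lower by small amounts and 17 were not called (median log2 fold change -0.049, against 0.03 for all tested genes). SNHG1 had 36.2 and 31.9 CPM in KO LPS libraries and 45.0 and 45.1 CPM in WT LPS libraries (log2 fold change -0.40 ± 0.10, edgeR adjusted p = 0.00292). SNHG15 had 32.7 and 31.5 CPM in KO LPS libraries and 43.5 and 40.6 CPM in WT LPS libraries (-0.39 ± 0.10, edgeR adjusted p = 0.00537). SNHG5 had 39.6 and 38.0 CPM in KO LPS libraries and 49.5 and 48.7 CPM in WT LPS libraries (-0.34 ± 0.08, edgeR adjusted p = 0.00292), the same direction as without LPS. SNHG29, the host of SNORD49 and SNORD65, averaged 104 CPM in KO LPS and 122 CPM in WT LPS libraries (-0.23 ± 0.08, edgeR adjusted p = 0.0238), lost without WT LPS replicate 1 or KO LPS replicate 2 (edgeR adjusted p = 0.206 and 0.0717).

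Of the higher microRNA hosts, MIR142HG averaged 30.8 CPM in KO LPS and 21.5 CPM in WT LPS libraries (log2 fold change 0.52 ± 0.14, edgeR adjusted p = 0.007), lost without WT LPS replicate 2 or KO LPS replicate 2 (edgeR adjusted p = 0.131 and 0.105). MIR210HG averaged 8.75 CPM in KO LPS and 6.10 CPM in WT LPS libraries (0.52 ± 0.20, edgeR adjusted p = 0.0475), lost without WT LPS replicate 1, WT LPS replicate 2 or KO LPS replicate 2 (edgeR adjusted p = 0.0768, 0.235 and 0.3). The MIR210HG call was also lost with DESeq2 size factors (0.48, edgeR adjusted p = 0.0623). MIR222HG averaged 4.11 CPM in KO LPS and 2.26 CPM in WT LPS libraries (0.86 ± 0.27, edgeR adjusted p = 0.0168), lost without WT LPS replicate 2 or KO LPS replicate 1 (edgeR adjusted p = 0.147 and 0.0675). MIR223HG, by contrast, kept its call in all alternatives run for this comparison.

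The last question was what BMS265246 changed in LPS-treated KO cells. MIR223HG fell more than any other tested host, and MIR503HG, SNHG30, MIR3142HG and MIR210HG fell too, while SNHG16, SNHG15, SNHG6, SNHG1, SNHG29, MIR22HG and MIR34AHG rose. Of the 43 tested hosts 7 were higher and 9 lower, which is 37.2% beside 47.8% of all tested genes (22.3% higher and 25.5% lower). Of 21 snoRNA hosts 5 were higher and 2 lower, and of 22 microRNA hosts 2 were higher and 7 lower. All statements about the compound refer to KO cells with LPS.

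MIR223HG had 9.61 and 9.27 CPM in KO LPS BMS libraries, against 119 and 111 CPM in KO LPS libraries. The fall was 12.2-fold (log2 fold change -3.61 ± 0.09, edgeR adjusted p = 1.51e-17), and the KO LPS BMS libraries lay below every library of the other 4 groups, whose lowest had 50.5 CPM. The monocyte and granulocyte markers summed to 1707 to 1885 CPM in KO LPS BMS libraries and 2836 to 3171 CPM in KO LPS libraries, and the 10 microglial markers to 5132 to 5620 CPM in KO LPS BMS libraries and 4713 to 5277 CPM in KO LPS libraries. Their part in the result was not tested.

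MIR503HG, the host of miR-503, had 1.58 and 1.22 CPM in KO LPS BMS libraries, against 7.61 and 11.1 CPM in KO LPS libraries (log2 fold change -2.75 ± 0.25, edgeR adjusted p = 1.24e-08). SNHG30 had 0.867 and 0.579 CPM in KO LPS BMS libraries, against 3.61 and 2.60 CPM in KO LPS libraries (-2.12 ± 0.34, edgeR adjusted p = 2.33e-05). For both hosts the KO LPS BMS libraries lay below all 10 other libraries.

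The hosts most raised by LPS did not move together with the compound. MIR3142HG had 13.0 and 11.3 CPM in KO LPS BMS libraries, against 33.9 and 26.8 CPM in KO LPS libraries, a 2.50-fold fall (log2 fold change -1.32 ± 0.13, edgeR adjusted p = 2.42e-08) that left it above the 2.29 to 2.84 CPM of KO libraries. MIR210HG had 4.25 and 4.38 CPM in KO LPS BMS libraries, against 7.997 and 9.51 CPM in KO LPS libraries (-1.02 ± 0.21, edgeR adjusted p = 0.000345). MIR155HG had 11.5 and 10.6 CPM in KO LPS BMS libraries, against 9.42 and 8.41 CPM in KO LPS libraries, and its log2 fold change of 0.30 ± 0.16 did not pass (edgeR adjusted p = 0.12). MIR22HG, also raised by LPS, was higher still with the compound, at 67.8 and 75.8 CPM in KO LPS BMS libraries against 41.5 and 39.8 CPM in KO LPS libraries (0.82 ± 0.09, edgeR adjusted p = 1.26e-07).

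SNHG16 and SNHG15, both raised by LPS, were higher still with the compound. SNHG16 had 74.3 and 77.4 CPM in KO LPS BMS libraries, against 46.2 and 40.1 CPM in KO LPS libraries (log2 fold change 0.81 ± 0.11, edgeR adjusted p = 4.13e-06). SNHG15 had 50.03 and 47.0 CPM in KO LPS BMS libraries, against 32.7 and 31.5 CPM in KO LPS libraries (0.59 ± 0.10, edgeR adjusted p = 4.43e-05). SNHG3 was lower instead, with 18.7 and 19.3 CPM in KO LPS BMS libraries and 25.9 and 23.3 CPM in KO LPS libraries (-0.37 ± 0.12, edgeR adjusted p = 0.0137), and RCC1, which shares exon sequence with it, fell as well (-0.44 ± 0.09, edgeR adjusted p = 0.000563). The SNHG3 call was lost without KO LPS BMS replicate 1 or KO LPS replicate 1 (edgeR adjusted p = 0.0697 and 0.171).

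Smaller rises were called for SNHG6, the host of SNORD87, which averaged 26.9 CPM in KO LPS BMS and 19.97 CPM in KO LPS libraries (log2 fold change 0.43 ± 0.13, edgeR adjusted p = 0.00926). Its call was lost without KO LPS BMS replicate 1 (edgeR adjusted p = 0.0727). MIR34AHG, the host of the p53-induced miR-34a, averaged 15.8 CPM in KO LPS BMS and 11.03 CPM in KO LPS libraries (0.52 ± 0.15, edgeR adjusted p = 0.00627), lost without KO LPS BMS replicate 2 (edgeR adjusted p = 0.102). The other called hosts were MIR3150BHG, MIR23AHG and MIR3945HG, with negative log2 fold changes, and SNHG1 and SNHG29, with positive ones. MIR3150BHG rested on 2 and 2 counts in KO LPS BMS libraries and 14 and 7 counts in KO LPS libraries, and its call (edgeR adjusted p = 0.0149) was lost without either KO LPS BMS library or KO LPS replicate 1 (edgeR adjusted p = 0.0588, 0.104 and 0.175) and with DESeq2 (adjusted p = 0.0583). MIR3945HG averaged 8.62 CPM in KO LPS BMS and 11.5 CPM in KO LPS libraries (-0.42 ± 0.17, edgeR adjusted p = 0.0447), lost with DESeq2 size factors (edgeR adjusted p = 0.0611), with DESeq2 (adjusted p = 0.183), without a filter on low counts (edgeR adjusted p = 0.12), in a fit of only the groups compared (edgeR adjusted p = 0.0678) and without KO LPS BMS replicate 2, KO LPS replicate 1 or KO LPS replicate 2 (edgeR adjusted p = 0.299, 0.0676 and 0.214). MIR23AHG averaged 7.45 CPM in KO LPS BMS and 10.1 CPM in KO LPS libraries (-0.43 ± 0.16, edgeR adjusted p = 0.03), lost with DESeq2 (adjusted p = 0.106), without a filter on low counts (edgeR adjusted p = 0.0858), in a fit of only the groups compared (edgeR adjusted p = 0.0761) and without KO LPS BMS replicate 1 or KO LPS replicate 2 (edgeR adjusted p = 0.188 and 0.292). SNHG1 rose by 0.35 ± 0.10 on the log2 scale (edgeR adjusted p = 0.00502), lost without KO LPS BMS replicate 2 or KO LPS replicate 2 (edgeR adjusted p = 0.152 and 0.0619), and SNHG29 by 0.29 ± 0.07 (edgeR adjusted p = 0.00275), lost without KO LPS BMS replicate 1 (edgeR adjusted p = 0.0807).

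**Figure D4:**
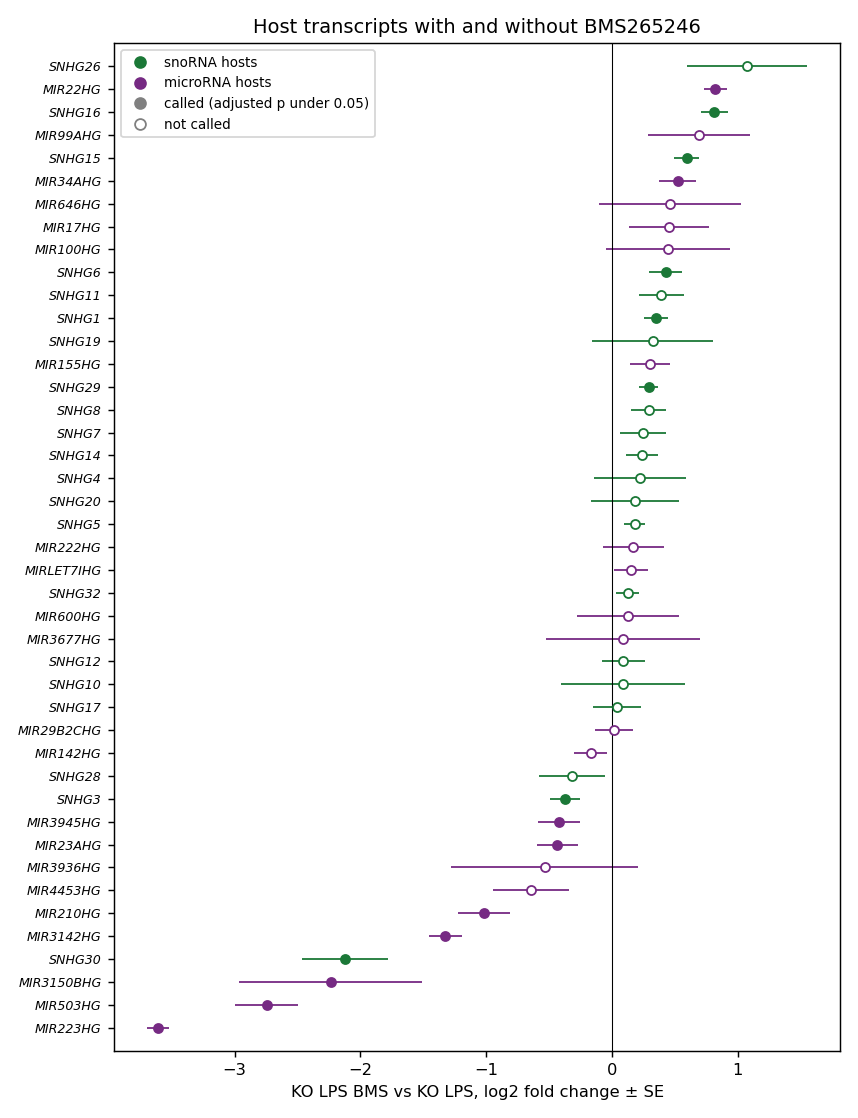
Log2 fold change ± SE between KO LPS BMS and KO LPS libraries for the 43 tested host transcripts, ordered by value. Filled points passed the test, 7 to the right of 0 and 9 to the left, and MIR223HG is farthest left at -3.61.

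The genes that process or use these RNAs were read from the same fit. Lists are described by counts and medians, with no test of the list. The shares of all tested genes against which the counts stand were 10.2% higher and 11.4% lower in KO against WT, 24.5% and 20.3% with LPS in KO cells, 28.9% and 30.8% with LPS in WT cells, 15.6% and 15% in KO LPS against WT LPS, and 22.3% and 25.5% with the compound. Among 8 core proteins of snoRNA particles, 4 were higher and 1 lower with LPS in KO cells (median log2 fold change 0.26, against -0.004 for all tested genes), and 5 were higher and 1 lower in WT cells (0.45, against -0.07). NOP58, a core protein of C/D box particles, rose to 67.1 CPM in WT LPS libraries, against 43.9 CPM in WT libraries (0.61 ± 0.07, edgeR adjusted p = 5.47e-08). Of 10 assembly factors of these particles, 3 were higher and 2 lower with LPS in KO cells (median log2 fold change -0.02, against -0.004 for all tested genes). With LPS in WT cells 4 were higher and 1 lower (0.02, against -0.07), and with the compound 1 was higher and 2 lower (-0.06, against -0.04). Among them, NOLC1 was higher in WT LPS than in WT libraries (0.93 ± 0.06, edgeR adjusted p = 6.45e-12) and in KO LPS BMS than in KO LPS libraries (0.59 ± 0.07, edgeR adjusted p = 1.42e-07). RPAP3, a cochaperone of the same assembly, fell with the compound to 11.9 CPM in KO LPS BMS libraries, against 30.4 CPM in KO LPS libraries (-1.37 ± 0.11, edgeR adjusted p = 2.24e-09).

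Of 22 other snoRNA hosts, such as the protein-coding genes NCL, HSPA8 and RPL13A, 1 was higher and 8 lower in KO than in WT cells (median log2 fold change -0.14, against -0.015 for all tested genes), and 0 were higher and 12 lower in KO LPS than in WT LPS cells (-0.20, against 0.03). In 31 tested genes of translation whose messages begin with a terminal oligopyrimidine (TOP) tract, a class to which several snoRNA hosts belong, 0 were higher and 24 lower in KO than in WT cells (median log2 fold change -0.25, against -0.02 for all tested genes). In KO LPS against WT LPS cells 0 were higher and 23 lower (-0.29, against 0.03), and with the compound 27 were higher and 0 lower (0.31, against -0.04). EEF1A1, the translation elongation factor, was at 4978 CPM in KO and 6250 CPM in WT libraries (-0.33 ± 0.04, edgeR adjusted p = 9.52e-07). Some genes stand in both lists, such as RPSA and RPL13A. SNHG5 and SNHG32, the 2 snoRNA hosts lower in KO than in WT cells, stood on the same side as most of these genes in that comparison. In KO LPS against WT LPS cells SNHG5 was lower too, but SNHG32 was not called (log2 fold change -0.049, edgeR adjusted p = 0.722). With the compound neither was called (0.18 for SNHG5 and 0.125 for SNHG32, edgeR adjusted p = 0.0761 and 0.271).

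The promoter-proximal letters show which snoRNA hosts have a TOP-like start at their annotated RefSeq start. Transcript starts in these cells were not measured, so a host without such letters there may still begin like a TOP gene, and the reverse. A start of C and at least 4 further pyrimidines within 2 bases of the RefSeq start was found in 6 of 22 snoRNA hosts with a RefSeq promoter (27.27%), in 4 of 27 microRNA hosts (14.81%) and in 10.52% of all 35116 promoters. The first 15 bases from the RefSeq start of the 2 snoRNA hosts lower in KO than in WT cells are shown, with the pyrimidine run in capitals.
SNHG5: CTTTTacgtcggcct
SNHG32: CTTTTTgcgaagtgg
The other 4 were SNHG4, SNHG7, SNHG12 and SNHG19, none of which was called between KO and WT cells.

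In the microRNA pathway, BMS265246 went with more falls than rises: of 18 genes 3 were higher and 12 lower in KO LPS BMS than in KO LPS cells (median log2 fold change -0.32, against -0.04 for all tested genes). DDX5, a helicase of the DROSHA complex, averaged 986 CPM in KO LPS BMS and 1361 CPM in KO LPS libraries (-0.47 ± 0.05, edgeR adjusted p = 8.66e-08). AGO2, the Argonaute that can cut its target, rose to 156 CPM in KO LPS BMS libraries, against 97.4 CPM in KO LPS libraries (0.68 ± 0.07, edgeR adjusted p = 3.3e-08). With LPS the 18 genes split, 5 higher and 5 lower in KO cells (median log2 fold change -0.07, against -0.004 for all tested genes) and 7 higher and 6 lower in WT cells (-0.02, against -0.07). Among them, DICER1 rose to 586 CPM in WT LPS libraries, against 235 CPM in WT libraries (1.32 ± 0.06, edgeR adjusted p = 4.26e-14), and its interaction was -0.38 ± 0.09 (edgeR adjusted p = 0.008), so that the rise was smaller in KO cells. In the 15 tested genes of nonsense-mediated decay, 7 were higher and 1 lower with LPS in KO cells (median log2 fold change 0.15, against -0.004 for all tested genes), and 10 were higher and 3 lower with LPS in WT cells (0.26, against -0.07). With the compound 4 were higher and 5 lower (0.05, against -0.04), close to the shares of all tested genes.

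Genes reported elsewhere as targets of the leading microRNAs moved in both directions. Of 9 tested miR-223 targets, 1 was higher and 3 lower in KO than in WT cells (median log2 fold change -0.16, against -0.015 for all tested genes), and 2 were higher and 3 lower with the compound (-0.015, against -0.04), the last close to the shares of all tested genes. FBXW7, a ubiquitin ligase subunit, rose to 76.6 CPM in KO LPS BMS libraries, against 29.5 CPM in KO LPS libraries (log2 fold change 1.38 ± 0.08, edgeR adjusted p = 1.81e-11), whereas LMO2, a blood-cell transcription cofactor, fell (-0.23 ± 0.06, edgeR adjusted p = 0.00264). MEF2C, the targeted gene, is itself on that list and is 1 of the 3 lower in KO than in WT cells (-0.47 ± 0.05, edgeR adjusted p = 4e-07). As the edited gene, it cannot bear on miR-223 in that comparison. Of 10 miR-155 targets, 3 were higher and 3 lower with LPS in WT cells (median 0.10, against -0.07), about the shares of all tested genes: INPP5D, the phosphatase SHIP1, fell to 93.4 CPM in WT LPS libraries, against 339 CPM in WT libraries (-1.86 ± 0.06, edgeR adjusted p = 2.08e-17), and BACH1, a transcriptional repressor, rose (1.24 ± 0.06, edgeR adjusted p = 7.22e-14).

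INPP5D had a positive interaction (log2 0.69 ± 0.08, edgeR adjusted p = 3.68e-06), with 147 CPM in KO LPS and 331 CPM in KO libraries. Of the 10 miR-155 targets, 1 was higher and 1 lower in the interaction (median log2 fold change 0.105, against 0.051 for all tested genes). In KO LPS against WT LPS cells 1 was higher and 3 lower (0.087, against 0.03), so the list as a whole did not move like INPP5D. Of 8 miR-146a targets, 4 were higher and 0 lower with LPS in WT cells (median log2 fold change 0.29, against -0.07 for all tested genes) and 5 were higher and 2 lower with the compound (0.22, against -0.04), and IRAK2, a kinase of Toll-like receptor signalling, was at 237 CPM in KO LPS BMS and 90.7 CPM in KO LPS libraries (1.39 ± 0.07, edgeR adjusted p = 1.08e-12). For the miR-17-92 list, whose host MIR17HG averaged 2.42 CPM in KO LPS and 1.204 CPM in KO libraries (0.98 ± 0.33, edgeR adjusted p = 0.0175), 8 of 10 were higher and 2 lower with LPS in KO cells (median 0.69, against -0.004 for all tested genes). The MIR17HG call was lost without KO LPS replicate 2 or KO replicate 2 (edgeR adjusted p = 0.597 and 0.0512). With LPS in WT cells MIR17HG was not called (log2 fold change 0.138, edgeR adjusted p = 0.75). The miR-17-92 list there had 8 of 10 higher and 2 lower as well (median 1.124, against -0.072 for all tested genes). Message levels of reported targets do not measure a microRNA.

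Promoters of the 2 microRNA hosts of the Toll-like receptor pathway are printed because LPS raised both. Each window holds 250 bases before and 50 after the RefSeq start (GRCh38.p14, strand of the gene), with a match in capitals to a kB motif (GGG and TTTCC with any 2 bases between) in MIR3142HG or to an AP-1 motif (TGANTCA) in MIR155HG.
MIR3142HG (chr5:160468001-160468300, plus strand): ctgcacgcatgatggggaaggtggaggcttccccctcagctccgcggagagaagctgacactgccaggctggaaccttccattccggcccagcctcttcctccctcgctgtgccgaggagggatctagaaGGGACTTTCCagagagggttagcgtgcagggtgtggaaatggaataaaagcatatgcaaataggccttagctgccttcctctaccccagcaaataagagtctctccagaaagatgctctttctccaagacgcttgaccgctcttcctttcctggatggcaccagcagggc
MIR155HG (chr21:25561895-25562194, plus strand): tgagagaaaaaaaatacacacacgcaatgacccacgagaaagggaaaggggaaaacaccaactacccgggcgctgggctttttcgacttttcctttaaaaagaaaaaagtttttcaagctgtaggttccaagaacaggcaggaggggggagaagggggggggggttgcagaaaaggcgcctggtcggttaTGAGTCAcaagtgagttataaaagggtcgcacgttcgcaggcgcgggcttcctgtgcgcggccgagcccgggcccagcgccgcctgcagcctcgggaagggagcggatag
Both strands were searched, and the motifs do not overlap. The kB letters began at -120 in MIR3142HG and were found in 2 of 27 microRNA host promoters, 1 of 22 snoRNA host promoters and 1.91% of all 35116 promoters. The AP-1 letters began at -60 in MIR155HG and were found in 2 of 27 microRNA host promoters, no snoRNA host promoter and 7.71% of all promoters. A MEF2 motif (CTA and TAG with any 4 bases between) was found in none of the 27 microRNA and 22 snoRNA host promoters searched. It was found in 2.73% of all promoters. MIR223HG and MIR3945HG had no promoter in the set and were not searched, so nothing is known here of motifs at their starts. These matches describe letters in a window and nothing beyond.

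The sources used here do not say whether counting used strand, so reads of overlapping genes cannot be told apart. Of the 43 tested hosts, 16 share exon sequence with another tested gene. For MIR23AHG, the host of miR-23a, miR-27a and miR-24-2, the overlap with ZSWIM4 on the other strand is 2286 bases. MIR23AHG averaged 10.1 CPM in KO LPS and 6.50 CPM in KO libraries (log2 fold change 0.64 ± 0.14, edgeR adjusted p = 0.000888), and ZSWIM4 rose as well (1.94 ± 0.18, edgeR adjusted p = 1.88e-05). MIR223HG, MIR155HG, MIR3142HG, MIR22HG, MIR210HG, MIR503HG, SNHG15 and SNHG5 share none, whereas SNHG7, SNHG12, SNHG14, SNHG29 and MIR34AHG each overlap a tested gene.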

How the data were processed

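Total RNA of 12 iMGL cultures was sequenced with 1 library per culture. The authors deposited a single table of unnormalized counts, whole numbers with 1 column per library. Per the labels, TRIzol served for extraction and a NEBNext Ultra kit for library preparation. CASAVA 1.7, Cufflinks and GRCh38 are named in the submitters' processing notes, with aligner, counter and strand setting not given in the sources used here. Groups and replicate numbers came from the titles. Symbols came from a table of gene names (56948 IDs) or GENCODE release 29 (440 more), and 604 IDs had none.

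edgeR 4.0.16 (R 4.3.3) kept 16022 genes (filterByExpr by group), scaled libraries by TMM and fitted a robust quasi-likelihood model to all 12 libraries, with a mean for each group. The common biological coefficient of variation was 0.064. Groups of 2 libraries borrow their spread from the other groups. Calls were made at an adjusted p under 0.05, and the steps were tested on simulated data. DESeq2 1.42.0, other scalings and filters, fits of only the groups compared, replicate blocks and left-out libraries were alternatives. Replicates of a group differed beyond sampling noise. Chi-square per degree of freedom was 4.92 in KO LPS BMS, 11.05 in KO LPS, 6.99 in WT LPS, 2.02 to 3.46 in KO and 2.28 to 3.56 in WT. The groups with LPS, of 2 libraries each, thus spread more than the KO and WT groups whose spread they share in the fit.

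The named hosts were MIR155HG and MIR223HG in every comparison and, among called hosts averaging at least 1 CPM whose groups do not overlap, the 5 that rose most and the 5 that fell most. From each background list, up to 2 called genes with the lowest adjusted p per direction were eligible. Members and lists were chosen with earlier results of these data known. Results for some overlapping and marker genes are not reported here.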

Additional observations from a re-analysis of the deposited data

Results flagged for a closer look

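A test of the difference between the LPS responses of KO and WT cells (the interaction in edgeR's quasi-likelihood fit) drew attention to 3 hosts. MIR155HG responded less in KO cells, by -1.342 on the log2 scale (SE 0.269, edgeR adjusted p = 0.00202). MIR142HG fell with LPS in WT cells and did not pass the threshold in KO cells, with a difference of 0.606 (SE 0.171, edgeR adjusted p = 0.0265). SNHG1 rose with LPS in WT cells and did not pass in KO cells, with a difference of -0.405 (SE 0.125, edgeR adjusted p = 0.0375). The MIR155HG call held in all alternatives run, whereas the MIR142HG call was lost without any library of KO or WT, WT LPS replicate 2 or KO LPS replicate 2 (edgeR adjusted p = 0.0524 to 0.152), and the SNHG1 call without any library of WT or WT LPS, KO replicate 1, KO replicate 2 or KO LPS replicate 2 (edgeR adjusted p = 0.0505 to 0.189).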

How the results depend on the processing

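No value for a named host reversed in any alternative run. Hosts not called in the main fit could change sign. With library size only, SNHG29 in KO LPS against KO went from a log2 fold change of 0.045 to -0.208 (edgeR adjusted p = 0.0137). Among 53 results for named hosts, 32 kept their side of the threshold throughout, and over all settings 595 values kept it, 67 lost it and 2 gained it. With library size only, 13 hosts in place of 5 were lower in KO LPS against KO and 1 in place of 2 was lower in the interaction. In KO LPS against WT LPS, DESeq2 called 3 hosts higher in place of 5, and a fit of only the groups compared called 3. Over all genes, that fit called 2660 of 14411 tested in this comparison, in place of 4900 of 16022. In KO against WT, a fit of only those groups called more, 4426 of 14945 in place of 3463 of 16022. The rule found 65 hosts at 10 counts and 46 at 50 counts.

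Same-numbered libraries deviated together with correlations from -0.143 to 0.097, so the numbers do not pair the samples. With the replicate block, 3 hosts were lower in KO LPS against KO, and the interaction had 0 higher and 1 lower, since the calls for MIR142HG and SNHG1 were lost (edgeR adjusted p = 0.0544 and 0.057) while MIR155HG kept its call (edgeR adjusted p = 0.00443). The call for MIR3945HG with BMS265246 was lost with the block as well (edgeR adjusted p = 0.0579). After the correlations were seen, a crossed pairing was added, which called 4 higher and 5 lower in KO LPS against WT LPS, and 7 higher and 9 lower with BMS265246.

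Leaving out 1 library gave 2 to 5 higher and 2 to 4 lower hosts in KO against WT, 15 to 16 and 7 to 11 in WT LPS against WT, 14 to 16 and 2 to 5 in KO LPS against KO, 2 to 7 and 4 to 6 in KO LPS against WT LPS, 0 to 2 and 1 to 3 in the interaction, and 5 to 9 and 6 to 8 with BMS265246. The cause of these differences was not tested. Hosts under about 1 CPM rest on few counts, and a change in them was often not detectable at this depth.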
